A study of Sus scrofa with 16 samples.

Results

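The transcripts followed here encode peroxiredoxins and other antioxidant enzymes of the pig pituitary. From a list of 10 symbols (*PRDX1*, *PRDX2*, *PRDX3*, *PRDX5*, *PRDX6*, *SOD1*, *SOD2*, *CAT*, *GPX4* and *TXN*), the set was formed by the rows of the deposited count table whose Ensembl identifier carries that symbol in the deposited comparison of the groups. This gave 8 genes among the 25880 rows of the table. *PRDX1* and *TXN* have no symbol there. They were named from a table of Ensembl identifiers and by position in the RefSeq annotation, respectively, and their values are given beside the set without being counted in it.

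Pituitary RNA came from 16 Złotnicka White gilts, a native Polish breed, of which 8 had low feed conversion (LFC) and 8 had high feed conversion (HFC). The labels give an age of 180 days for each pig and place the group, low_FCR or high_FCR, under a tag named shear force. By the study's methods, however, the test ended at a set body weight, with ages that varied between pigs. In its measurements the HFC gilts of this breed gained less per day, spent longer in test and were fatter by several measures. Growth rate, time in test and fatness therefore cannot be told apart from feed conversion here. All gilts shared feed and housing at a test station, and by the study's methods they were not related to each other. The whole gland was homogenised, so the RNA mixes the hormone cells of the anterior lobe with the glia of the posterior lobe and with blood and vessels. In such RNA, fewer cells of a type and less RNA per cell cannot be told apart. The comparison asked how the transcript levels of these enzymes differed between gilts of low and high feed conversion.

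Respiration and the oxidative folding of secreted proteins release superoxide and hydrogen peroxide. Superoxide dismutases turn superoxide into hydrogen peroxide, which catalase, glutathione peroxidases and peroxiredoxins then reduce. Most peroxiredoxins are recycled by thioredoxin, and glutathione serves the glutathione peroxidases. Hormone cells of the anterior pituitary secrete large amounts of disulphide-bonded protein, and these enzymes are present in nearly all cells.

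In the Sscrofa11.1 assembly, 4 of the 8 genes lie on chromosome 2. *SOD1* (ENSSSCG00000021355) spans positions 195326599 to 195335484 of chromosome 13, and *SOD2* (ENSSSCG00000040317) 7679352 to 7691724 of chromosome 1. *CAT* (ENSSSCG00000013302), by far the longest of the set with 87827 bases, spans 26493626 to 26581452 of chromosome 2. *GPX4* (ENSSSCG00000024052) lies at 77320464 to 77323938 of the same chromosome, almost wholly inside the span of *SBNO2*, with which it shares 3474 bases. Also on chromosome 2 are *PRDX2* (ENSSSCG00000013736, 66207880 to 66216017) and *PRDX5* (ENSSSCG00000013030, 7798670 to 7802043). *PRDX3* (ENSSSCG00000010682) spans 129079051 to 129090830 of chromosome 14, and *PRDX6* (ENSSSCG00000022742) 115857527 to 115872531 of chromosome 9. The libraries did not keep the strand of the RNA. Reads from stretches shared with a neighbour therefore cannot be assigned by strand. In the positions of the deposited comparison this concerns *SOD1* (2225 bases shared with *SCAF4*), *PRDX2* (2195 bases with *HOOK2* and 597 with *RNASEH2A*) and *PRDX5* (81 bases with *TRMT112*) besides *GPX4*. The RefSeq annotation of the same assembly differs, with 4187 bases shared by *PRDX6* and LOC100624136, 1932 by *PRDX2* and *JUNB*, 538 by *PRDX2* and *RNASEH2A*, 1927 by *CAT* and *ABTB2*, 307 by *SOD1* and *SCAF4* and no neighbour listed for *GPX4*. The values of these genes are uncertain to that extent.

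The libraries held 6010629 to 11794256 counts per pig, with medians of 7803047 in the LFC and 9027332 in the HFC pigs. Each gene of the set had between 333 and 5104 counts in every pig, and all 8 were among the 13621 genes that passed the filter on low counts. The markers of hormone cells, led by *PRL*, *GH1* and *CGA*, summed to 81732, 110346 and 138267 counts per 1000000 (CPM) in the lowest, median and highest LFC pig and to 93424, 139386 and 204505 CPM in the HFC pigs. Of 7 tested, 5 were higher in HFC and 2 in LFC, with log2 fold changes from -1.05 to 1.27. Among them were *PRL* with 1.27 (edgeR adjusted p = 0.372) and *CGA* with -0.56 (0.433). Before adjustment, 1 marker in each direction had a p of at most 0.05 in edgeR. The part of hormone cells in the levels of the set was not tested. Markers of glia and myelin summed to between 1239 and 6011 CPM in 4 pigs (LFC replicates 1, 5 and 7 and HFC replicate 6), against medians of 254 and 200 CPM in the LFC and HFC groups. A further 3 pigs stood apart in the span slope, which is the change of log2(CPM + 1) per doubling of a gene's span from start to end. It was fitted over the 10890 tested genes with a known span, so that a negative slope means relatively more counts in genes of short span. The span slope was between -0.103 and -0.085 in LFC replicates 4 and 6 and HFC replicate 5 and between -0.040 and 0.044 in the other pigs.

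The mean of each of the 8 genes was higher in LFC than in HFC pigs, by 1.06-fold for *PRDX2* to 1.26-fold for *PRDX5*, but no gene passed the test. With the quasi-likelihood test of edgeR and Benjamini-Hochberg adjustment over 13621 genes, adjusted p-values of the set lay between 0.413 and 0.659. Calls required an adjusted p no larger than 0.05 together with a 1.3-fold difference, and 0 of all genes tested (0.0%) met both, and the smallest adjusted p of any gene was 0.372. DESeq2 called 29 of 13446 genes (0.216%), none of them in the set, where its smallest adjusted p was 0.200, for *SOD2*. The study, with DESeq2 at the same thresholds, reported more genes for this breed. It listed *PRDX5* among those of the cellular response to oxidative stress. Why the results differ was not tested.

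Before adjustment, a p of at most 0.05, called the nominal threshold from here on, was reached in edgeR by *SOD2* and *PRDX5*, 2 of 8 genes, both higher in LFC. Among all genes tested 1559 (11.4%) did so in either direction, 4.41% with the LFC and 7.03% with the HFC pigs higher. The log2 fold change of HFC over LFC was below 0 in 8 of 8 genes of the set and in 52.1% of all genes, or 53.3% of the 2732 genes with a mean of at least 6 on the log2 CPM scale, where the set lies. Genes of short span leaned the same way. Of the 833 such genes whose span was at most 15005 bases, that of *PRDX6* and so of every gene of the set except *CAT*, 71.7% were higher in LFC, and 5.76% were so past the nominal threshold. Their median log2 fold change was -0.12, against -0.17 in the set and -0.01 over all genes tested.

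**Figure D1:**
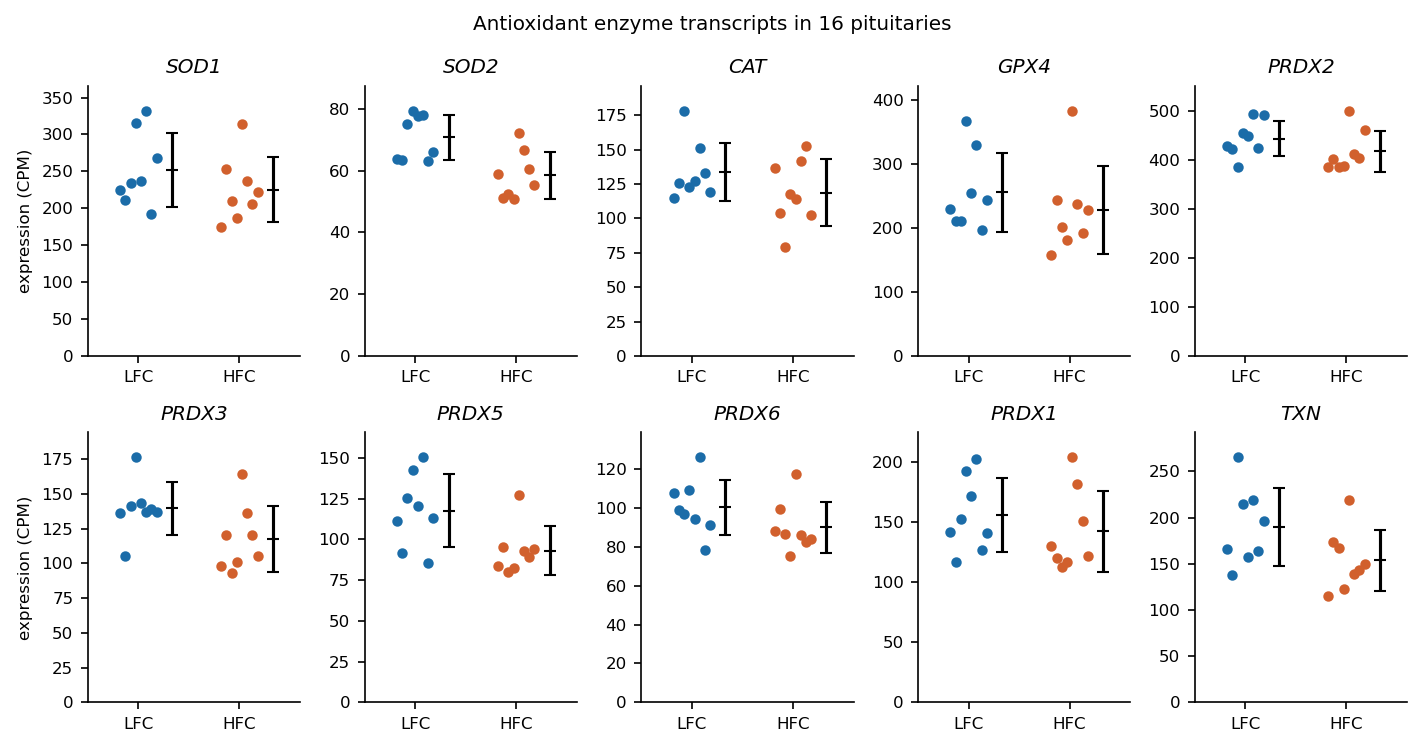
Expression in CPM (counts per 1000000, linear axis from 0) of the 8 enzymes of the set and of *PRDX1* and *TXN*, with 1 point per pig, LFC in blue and HFC in orange. The bars show the mean and SD of 8 pigs. The groups overlap for every gene, most narrowly for *SOD2*, where 6 of 8 HFC pigs lie below the lowest LFC pig.

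*SOD2*, the manganese superoxide dismutase of the mitochondrial matrix, differed most between the groups relative to the spread of the pigs. Its level was 63.1 CPM in the lowest, 70.4 at the median and 79.5 in the highest LFC pig, against 50.6, 57.1 and 72.2 CPM in the HFC pigs. The groups overlapped, but 6 of 8 HFC pigs lay below the lowest LFC pig and 4 of 8 LFC pigs above the highest HFC pig. The means were 70.8 ± 7.33 CPM and 58.5 ± 7.71 CPM (SD, n = 8 each). This gave a log2 fold change of -0.28 ± 0.09 (SE; 95% confidence interval -0.47 to -0.08), with an unadjusted p of 0.00664 and an adjusted p of 0.413 in edgeR.

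*SOD1*, the copper and zinc enzyme of the cytosol, was spread more widely within each group. It ranged from 192 through a median of 236 to 332 CPM in LFC and from 174 through 216 to 314 CPM in HFC pigs. The ranges overlapped over most of their width, with LFC replicate 6 and HFC replicate 5 the highest of their groups. Its log2 fold change was -0.16 ± 0.13 (SE), with an adjusted p of 0.582 (edgeR). The log2 ratio of *SOD1* to *SOD2* counts within a pig, which does not depend on how libraries are scaled, was 1.81 ± 0.20 in LFC and 1.93 ± 0.23 in HFC pigs (SD, n = 8 each). The difference of 0.12 was within the spread (exact two-sided permutation test, p = 0.272, 0.748 after adjustment over 5 ratios).

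*CAT*, the catalase of peroxisomes, was lowest in HFC replicate 3 and highest in LFC replicate 3. It measured 115, 127 and 178 CPM in the lowest, median and highest LFC pig, and 79.0, 116 and 153 CPM in the HFC pigs. Of the HFC pigs, 4 of 8 lay below the lowest LFC pig, while the remaining 4 lay among the LFC pigs. The fit gave a log2 fold change of -0.17 ± 0.13 (SE), with an adjusted p of 0.535 (edgeR).

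*GPX4*, the selenoenzyme that reduces lipid hydroperoxides within membranes, varied most among the pigs. Its coefficient of variation within groups was 27.4%, larger than in 84.3% of genes of a similar level. It ranged from 197 through 237 to 369 CPM in LFC and from 159 through 215 to 384 CPM in HFC pigs. The highest pig of all was HFC replicate 5, so the HFC range covered the whole of the LFC range. The log2 fold change was -0.16 ± 0.17 (SE; 95% confidence interval -0.53 to 0.21), with an adjusted p of 0.659 (edgeR).

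*PRDX5*, an atypical peroxiredoxin of mitochondria, peroxisomes and cytosol, had the largest fold change of the set. Its level was 85.6 CPM in the lowest, 117 at the median and 151 in the highest LFC pig, against 80.1, 91.2 and 127 CPM in the HFC pigs. Of the HFC pigs, 7 of 8 lay below the LFC median, and the exception was HFC replicate 5. The means were 118 ± 22.4 CPM and 93.1 ± 14.97 CPM (SD, n = 8 each), a log2 fold change of -0.34 ± 0.12 (SE; 95% confidence interval -0.60 to -0.08). The unadjusted p was 0.0126 and the adjusted p 0.413 (edgeR).

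*PRDX3*, the peroxiredoxin of the mitochondrial matrix, was close to the unadjusted threshold. It measured 105, 138 and 176 CPM in the lowest, median and highest LFC pig and 92.7, 113 and 164 CPM in the HFC pigs. Again 7 of 8 HFC pigs lay below the LFC median, HFC replicate 5 being the one above. The log2 fold change was -0.25 ± 0.12 (SE), with an unadjusted p of 0.0510 and an adjusted p of 0.433 (edgeR). The log2 ratio of *PRDX3* to *PRDX5* differed by 0.07 between the groups (0.26 ± 0.23 in LFC and 0.32 ± 0.13 in HFC pigs, SD, n = 8 each, exact permutation test, p = 0.495, adjusted 0.825).

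*PRDX6*, a peroxiredoxin with a single catalytic cysteine that also acts on phospholipids, ranged from 78.5 through 97.9 to 126 CPM in LFC and from 75.3 through 86.2 to 117 CPM in HFC pigs. The ranges overlapped widely. The log2 fold change was -0.16 ± 0.10 (SE), with an adjusted p of 0.503 (edgeR). Relative to *GPX4*, the other enzyme here that acts on oxidised lipids, its log2 ratio was -1.33 ± 0.23 in LFC and -1.31 ± 0.25 in HFC pigs (SD, n = 8 each, exact permutation test, p = 0.872).

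*PRDX2*, a cytosolic peroxiredoxin that is also abundant in red blood cells, was the steadiest gene of the set. Its level was 385 CPM in the lowest, 437 at the median and 493 in the highest LFC pig, and 384, 403 and 500 CPM in the HFC pigs. The coefficient of variation within groups was 9.18%, and only 6.47% of genes of a similar level varied less. The log2 fold change was -0.09 ± 0.09 (SE; 95% confidence interval -0.27 to 0.10), with an adjusted p of 0.638 (edgeR).

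Both genes named by other means leaned the same way as the set. Their values carry the same uncertainty from shared stretches. In the RefSeq annotation *TXN* shares 8719 bases with LOC110256047 and *PRDX1* 9341 with LOC102165936. In the deposited positions *PRDX1* shares 591 bases with *AKR1A1*. *TXN* (ENSSSCG00000005453, chromosome 1, 251264178 to 251277550), the cytosolic thioredoxin that recycles peroxiredoxins, had means of 190 ± 41.9 CPM in LFC and 154 ± 33.2 CPM in HFC pigs (SD, n = 8 each). Its log2 fold change was -0.31 ± 0.15 (SE), with an unadjusted p of 0.0502 and an adjusted p of 0.433 (edgeR). *PRDX1* (ENSSSCG00000003914, chromosome 6, 165824594 to 165861430), the closest relative of *PRDX2*, had means of 156 ± 30.7 and 142 ± 33.8 CPM and a log2 fold change of -0.13 ± 0.14 (SE, edgeR adjusted p = 0.676). The log2 ratio of *PRDX1* to *PRDX2* differed by -0.05 and that of *TXN* to *PRDX1* by -0.16 between HFC and LFC pigs, neither beyond the spread (exact permutation tests, p = 0.697 and 0.299, adjusted 0.871 and 0.748, n = 8 each).

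The 8 genes did not vary independently over the pigs. All 8 were above their median over the 16 pigs in LFC replicates 5 and 6, and 7 of 8 in LFC replicate 4 and HFC replicate 5. None was above it in HFC replicates 3 and 4, and 1 of 8 in HFC replicates 1, 7 and 8. The LFC group was not uniform, since only 2 of 8 genes were above the median in LFC replicate 2 and 3 of 8 in LFC replicate 7.

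**Figure D2:**
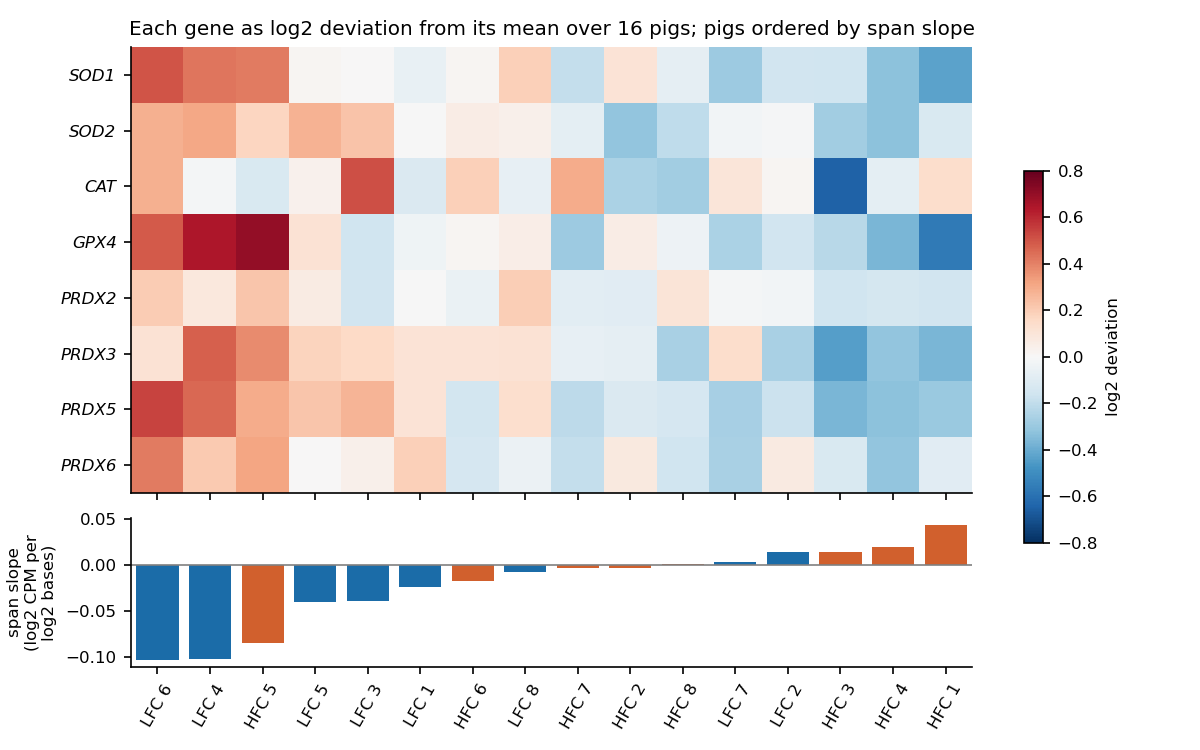
Upper panel, log2 deviation of each gene of the set from its own mean over 16 pigs (colour scale from -0.8 to 0.8, red above and blue below the mean). Lower panel, the span slope of each pig, by which the pigs are ordered from left to right, LFC in blue and HFC in orange. LFC replicates 6 and 4 and HFC replicate 5, with the lowest span slopes, lie above the mean in the 7 genes other than *CAT*, while *CAT* does not follow the order.

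Over the 16 pigs, the 28 pairs of genes in the set had a median Pearson's r of 0.66 on the log2(CPM + 1) scale, from -0.04 to 0.96. *CAT* was set apart. The 21 pairs without it had r between 0.55 and 0.96, all with an adjusted permutation p of at most 0.05 (19 of 21 for Spearman's rho), while 1 of its own 7 pairs did so for r and 0 for rho. The adjustment covered r and rho of 44 relations, including those below. The exception was *SOD2* and *CAT*, with r of 0.56 and rho of 0.46 (adjusted permutation p = 0.0287 and 0.088).

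*SOD1* and *GPX4* were the closest pair, with r and rho of 0.96 (permutation p = 1e-05 for both, the smallest that 100000 resamples can give, adjusted 0.000147). Their r was 0.93 within LFC, 0.98 within HFC, 0.94 when the 2 pigs farthest from the *SOD1* median were omitted, and 0.91 in the 13 pigs left when those of the lowest span slope were omitted. Other pairs rested more on single pigs. In the same 13 pigs the 21 pairs without *CAT* had a median r of 0.55, with a lowest value of 0.14 for *PRDX2* and *PRDX6*, a pair whose r of 0.58 was 0.26 without the 2 farthest pigs and thus rests on them. Points from 1 library share its depth, scaling and RNA, so these relations are not independent of each other.

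The span slope was related to 7 of the 8 genes. Its r was -0.93 with *PRDX5*, -0.92 with *GPX4*, -0.91 with *SOD1*, -0.82 with *PRDX3*, -0.80 with *SOD2*, -0.79 with *PRDX6* and -0.67 with *PRDX2* (adjusted permutation p of at most 0.05 for r and rho of each). With *CAT* it was -0.25 (permutation p = 0.358, adjusted 0.409). For these 7 genes r lay between -0.93 (*PRDX5*) and -0.40 (*PRDX2*) within LFC and between -0.96 (*GPX4*) and -0.72 (*SOD2*) within HFC pigs. In the 13 pigs without the lowest slopes it lay between -0.85 (*PRDX5*) and -0.33 (*PRDX2*), and for *PRDX3* it was -0.83, about as before. The relation of some genes depended on the scaling of the libraries. With the genes scaled by total library size in place of TMM and the slope left unchanged, r was -0.18 for *PRDX2* and -0.50 for *SOD2*. It was -0.60 to -0.91 for the other 5. The set belongs to the genes over which the slope was fitted, as 8 of 10890. A low slope means relatively more counts in genes of short span. The 7 related genes span at most 15005 bases, against 87827 for *CAT*. A negative r for these 7 was therefore partly set by the measure itself. How many of all genes tested have such an r was not counted.

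**Figure D3:**
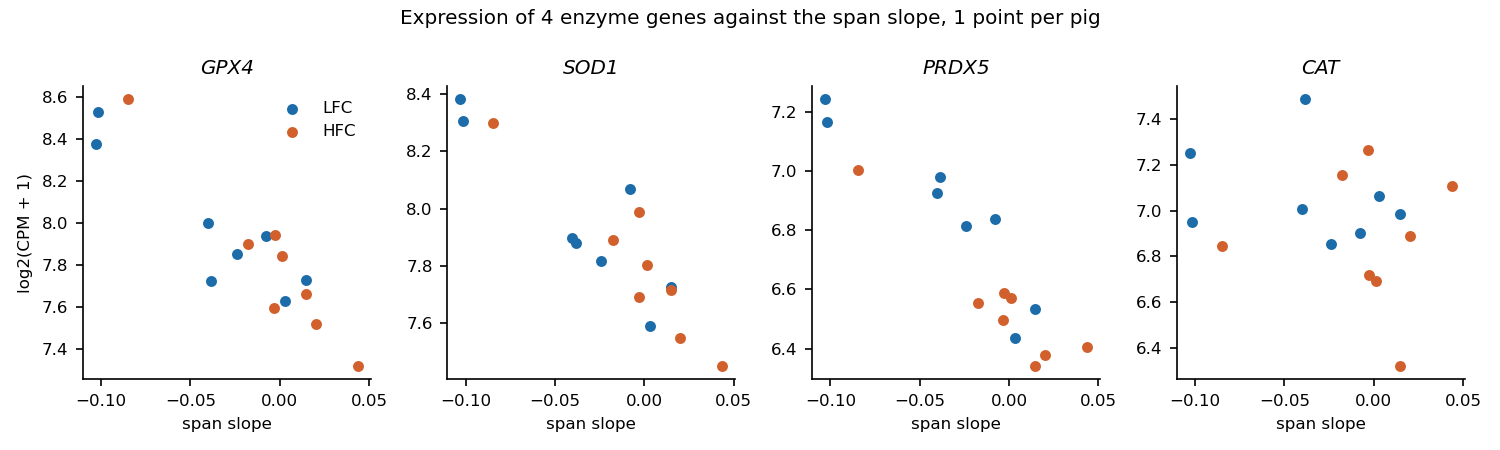
Expression of *GPX4*, *SOD1*, *PRDX5* and *CAT* as log2(CPM + 1) against the span slope of each pig, LFC in blue and HFC in orange. The first 3 genes are lower at higher slopes in both groups, with r from -0.93 to -0.91, and *CAT* shows r of -0.25.

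The span slope itself averaged -0.037 ± 0.044 in LFC and -0.004 ± 0.038 in HFC pigs (SD, n = 8 each), a difference within the spread of the pigs (exact two-sided permutation test, p = 0.125). With the span slope as a covariate, 6 of 8 genes remained higher in LFC. Of all 13621 genes tested 49.9% were then higher in LFC, and 650 passed the nominal threshold in either direction. *SOD2* then had a log2 fold change of -0.17 and *PRDX5* of -0.14, both still past the nominal threshold in edgeR, with a smallest adjusted p of 0.952 in the set, while *SOD1* (0.03) and *GPX4* (0.09) turned higher in HFC. Without the 3 pigs of lowest slope, 8 of 8 genes were higher in LFC, and *SOD2* (-0.26), *PRDX5* (-0.28) and *PRDX3* (-0.27) passed the nominal threshold in edgeR, with a smallest adjusted p of 0.241. Of the 13732 genes tested there, 50.3% were higher in LFC and 1971 passed the nominal threshold in either direction. What part the span slope has in the difference between the groups was not tested beyond these values.

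**Figure D4:**
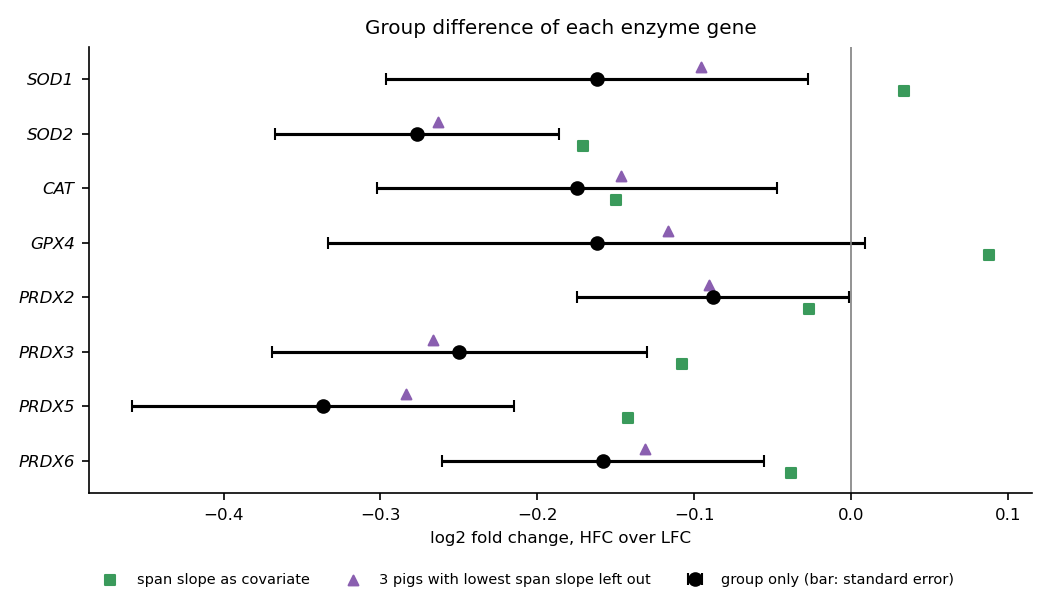
Log2 fold change of HFC over LFC for each gene of the set. Black points with bars show the fit with the group alone and its standard error, green squares the fit with the span slope as a covariate, and purple triangles the fit without the 3 pigs of lowest span slope. All black points lie below 0, and the squares of *SOD1* and *GPX4* lie above it.

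The summed markers of red blood cells also moved with the set. Of 12 listed, 7 had a row and 4 were tested, of which 3 were higher in LFC and 1 in HFC. The sum was 280, 454 and 1437 CPM in the lowest, median and highest LFC pig and 66.2, 188 and 1054 CPM in the HFC pigs. It came mostly from 1 globin transcript, *HBB*, with *HBZ* at 0, so the relations below are largely those of *HBB*. *ALAS2*, which starts haem synthesis in red cell precursors, had means of 8.22 and 4.30 CPM and a log2 fold change of -0.93, past the nominal threshold (edgeR adjusted p = 0.423). The highest sums were in LFC replicate 4 and HFC replicate 5, both also high in the set, followed by LFC replicate 7, in which 3 of 8 genes of the set were above their median. The r of the log2 sum with the genes of the set was 0.82 for *PRDX3*, 0.76 for *GPX4* and 0.54 to 0.71 for the others except *CAT* (0.15), with an adjusted permutation p of at most 0.05 in 7 of 8 for r and for rho. How many of all genes tested were related to the sum in this way was not counted, so the relation cannot be called particular to the set. Within LFC pigs the r was lower for several genes, 0.06 for *PRDX6*, 0.19 for *PRDX2* and 0.37 for *PRDX5*. With the genes scaled by total library size and the marker sum left TMM-scaled, it was 0.17 for *PRDX2*. In the 13 pigs without the lowest slopes it was between 0.16 and 0.69. The part of blood in the levels of the set was not tested.

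Without the 4 pigs rich in glia markers, 8 of 8 genes were again higher in LFC, with a median log2 fold change of -0.28. *SOD2* (-0.34) and *PRDX5* (-0.42) were again those past the nominal threshold in edgeR, with a smallest adjusted p of 0.283. Of the 13707 genes tested there, 52.0% were higher in LFC and 1995 passed the nominal threshold in either direction. Leaving out single pigs moved several fold changes by over 1.5 times. *GPX4* was at -0.06 without LFC replicate 4, -0.09 without LFC replicate 6, -0.10 without HFC replicate 1 and -0.28 without HFC replicate 5. *SOD1* was at -0.10 and -0.08 without LFC replicates 4 and 6, and *CAT* at -0.08 and -0.11 without replicate 3 of LFC and of HFC. *PRDX6* was at -0.09 without LFC replicate 6, and *PRDX2* at -0.05 without LFC replicate 6 or 8. The direction held in each case. The largest effect on the count past the nominal threshold came from HFC replicate 5. Without it 4 of 8 genes passed the nominal threshold (*SOD2*, *PRDX5*, *PRDX3* and *PRDX6*), with a smallest adjusted p of 0.0931 in edgeR. The count rose over all genes as well, to 3514 of 13697 tested, against 1559 of 13621 with all 16 pigs. *SOD2* and *PRDX5* stayed past the nominal threshold whichever of the 16 pigs was left out.

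The genes closest to each enzyme over the 16 pigs were sought among 12353 tested genes with a symbol. *PRDX5* was closest to *CXorf56* (r = 0.97), *SBDS*, a factor of ribosome maturation (0.96), and *COX7B*, a subunit of cytochrome c oxidase (0.96). *PRDX3* was closest to *MRPL55*, a protein of the mitochondrial ribosome (0.95), *RNF13* (0.93) and the ribosomal protein *RPS29* (0.93). *PRDX2* had *MRRF*, the mitochondrial ribosome recycling factor (0.92), *MRPL58* (0.89) and *NDUFAB1*, the mitochondrial acyl carrier protein (0.87). Each of these neighbours had, like the enzyme it was matched to, a log2 fold change below 0. They were chosen for following the enzyme over the pigs of both groups, so a shared direction was largely set by the choice. Of all genes tested, 52.1% were below 0.

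*GPX4* and *SOD1* shared *EEF1AKMT1*, a lysine methyltransferase (r of 0.97 and 0.96), among their nearest genes. *GPX4* was otherwise closest to *POLR2F*, a subunit of RNA polymerases, and *SNRNP25*, a minor spliceosome protein (both 0.97). *SOD1* was otherwise closest to *SNU13*, a spliceosomal and nucleolar protein, and *TBCA*, a tubulin folding cofactor (both 0.96). Both belonged to a large block, since 1046 genes had an r of at least 0.8 with *GPX4* and 1069 with *SOD1*, against 885 for *PRDX5*, 371 for *PRDX3*, 272 for *PRDX6*, 211 for *SOD2*, 62 for *CAT* and 50 for *PRDX2*. *SOD2* was nearest to *UROD*, an enzyme of haem synthesis (0.92), *PLEKHO1* (0.92) and *URM1* (0.91), and *PRDX6* to *RBBP9*, *AP4M1* (both 0.89) and *METTL9* (0.88). *CAT* had other neighbours, *FSTL1*, a secreted glycoprotein (0.91), the G protein subunit *GNA14* (0.89) and the tyrosine kinase *FES* (0.88).

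Beyond the set, 7 lists of antioxidant and peroxide genes held 155 symbols, of which 142 had a row and 136 were tested. Of these, 92 were higher in LFC and 44 in HFC, with a median log2 fold change of -0.09. Over all genes tested 52.1% were higher in LFC, and 71.7% of the 833 genes of short span and higher level described above. The lists were limited neither by span nor by level, so the 71.7% is not a matched background for them. The 52.1% stands beside the counts of each list below. Past the nominal threshold were 8 genes with the LFC and 3 with the HFC pigs higher (edgeR), or 11 of 136. Over all genes it was 11.4%, with 4.41% higher in LFC and 7.03% in HFC. No adjusted p in the lists was below 0.413.

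Thioredoxin and other peroxiredoxin genes gave 14 higher in LFC and 5 in HFC of 19 tested, with a median of -0.12 and 0 past the nominal threshold in edgeR. The smallest p on the LFC side was that of *TXNL4A* (-0.27 ± 0.13, SE), which just missed it, and on the HFC side that of *SESN3*, a sestrin (0.18 ± 0.13, SE). *TXNRD1*, the cytosolic thioredoxin reductase, was at 74.9 and 72.4 CPM in LFC and HFC pigs (log2 fold change -0.05), and *PRDX4*, the peroxiredoxin of the endoplasmic reticulum, at 136 and 133 CPM (-0.04). These were smaller differences than those of *PRDX3* and *PRDX5*, although the differences between genes were not tested.

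The glutathione and glutaredoxin list had 21 of 30 tested genes higher in LFC and a median of -0.09. *MGST1*, a microsomal glutathione transferase, was at 62.0 and 44.6 CPM in LFC and HFC pigs, a log2 fold change of -0.48 ± 0.20 (SE). It passed the nominal threshold in edgeR, as did *GSTA4*, a transferase for lipid aldehydes (-0.23 ± 0.08, SE), and *GLRX3*, a glutaredoxin (-0.27 ± 0.13, SE), all higher in LFC. *GSR*, the glutathione reductase, differed by -0.07 ± 0.10 (SE).

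Among NRF2, its regulators and targets, 13 of 17 were higher in LFC, with a median of -0.07. *NFE2L1*, a relative of NRF2 known for controlling proteasome genes, was higher in HFC (299 and 366 CPM in LFC and HFC, log2 fold change 0.29 ± 0.13, SE) and passed the nominal threshold in edgeR. *NFE2L2*, which encodes NRF2 itself, differed by -0.18 ± 0.10 (SE). Of its targets, *NQO1* and *HMOX1* differed by 0.01 and 0.11, and *FTL* by -0.46 ± 0.25 (SE), short of the nominal threshold in edgeR. *BLVRA*, biliverdin reductase, had the smallest p on the LFC side (-0.28 ± 0.14, SE).

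Of copper chaperones, metallothioneins and related genes, 9 of 11 were higher in LFC, with a median of -0.16. *PON2*, a paraoxonase (-0.26 ± 0.10, SE), and *GLO1*, glyoxalase (-0.22 ± 0.10, SE), passed the nominal threshold in edgeR, and on the HFC side *UCP2* came first by p (0.13 ± 0.17, SE). *CCS*, the copper chaperone that loads *SOD1*, differed by -0.11 ± 0.13 (SE).

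Among selenoproteins, selenium handling and methionine sulphoxide repair, to whose biosynthesis *GPX4* is tied by its selenocysteine, 15 of 21 were higher in LFC, with a median of -0.11. *SECISBP2*, which binds the element that directs selenocysteine insertion (-0.23 ± 0.09, SE), and *SEPHS1* (-0.25 ± 0.10, SE) were higher in LFC past the nominal threshold in edgeR. *SELENOM* was higher in HFC past it, at 11.3 and 15.5 CPM in LFC and HFC pigs (0.45 ± 0.17, SE). Of peroxisome biogenesis genes, which form the organelle of *CAT*, 11 of 17 were higher in LFC, with a median of -0.10. Of these *PEX13* passed the nominal threshold in edgeR (-0.24 ± 0.11, SE).

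Enzymes that form superoxide or hydrogen peroxide were the list whose median lay above 0, with 9 of 21 higher in LFC, 12 in HFC and a median of 0.05. *XDH*, xanthine dehydrogenase, was higher in HFC at a low level (0.935 and 1.78 CPM, log2 fold change 0.75 ± 0.31, SE) and passed the nominal threshold in edgeR. On the LFC side *CYBA*, the small subunit of NADPH oxidase, had the smallest p (-0.12 ± 0.12, SE). The monoamine oxidases *MAOA* and *MAOB* differed by 0.01 and 0.07.

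**Figure D5:**
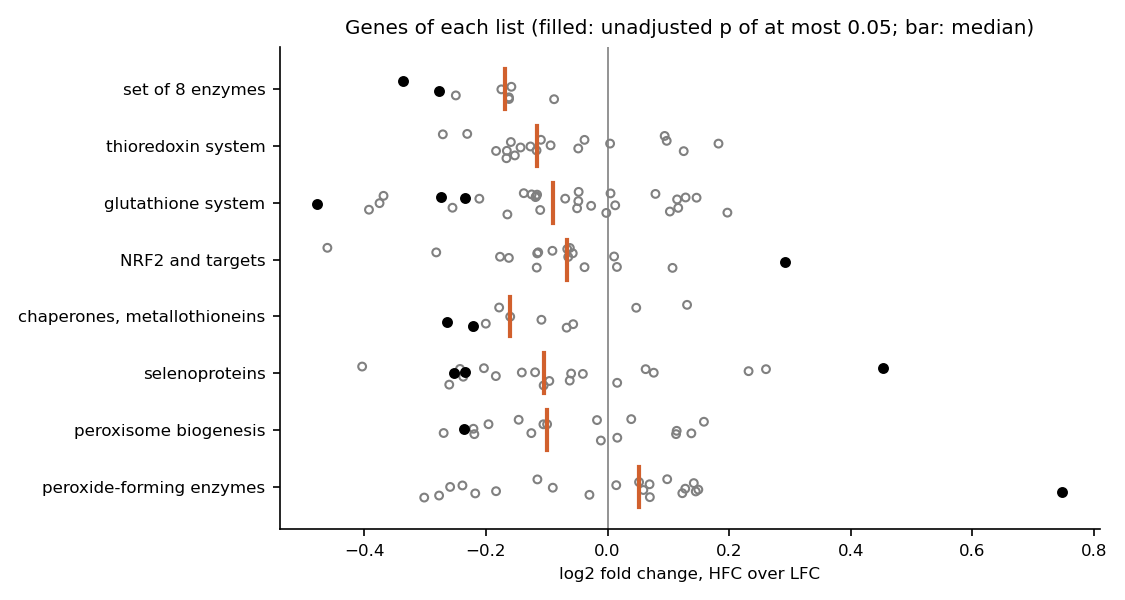
Log2 fold change of HFC over LFC for each tested gene of the set and of 7 lists, with 1 point per gene, filled where it passed the nominal threshold, with an orange bar at the median. The medians of the set and of 6 lists lie between -0.17 and -0.07, and that of the peroxide-forming enzymes at 0.05.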

How the data were processed

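Total RNA of 16 pituitaries was made into TruSeq v2 libraries. The authors cleaned the reads (FastQC, Flexbar) and ran RSEM with STAR against the Sscrofa11.1 assembly and its Ensembl genes, and the deposited counts are raw whole numbers per gene and pig. The counter behind the whole numbers is not given in the sources used here. The submitters' processing notes also name CASAVA 1.8.2 and DESeq2. The authors also deposited their comparison of the groups, with group means, ratios, log2 values and p-values, none of which was used. Symbols and gene positions were taken from it.

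Groups were taken from the labels. Counts were scaled by TMM, filtered with filterByExpr and tested with edgeR 4.0.16 (quasi-likelihood, prior count 2, R 4.3.3) with the group as the only term. Calls needed an adjusted p no larger than 0.05 and a 1.3-fold difference. A positive log2 fold change is higher in HFC. CPM are TMM-scaled, SE were derived from the F statistic, and the common biological coefficient of variation was 0.249. Ratios within a pig (0.5 added to each count) were compared by exact permutation over 12870 splits, and correlations of log2(CPM + 1) by 100000 resamples, with Benjamini-Hochberg adjustment. Replicates are separate pigs. All pairs of libraries within a group differed by more than sampling noise (chi-square per degree of freedom 11.4 to 85.9, 56 pairs). The code was tested on simulated data.

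Every gene of the set was named, with, in each list, all genes at an unadjusted p of at most 0.05 (up to 6) and the smallest p in each direction (some are not reported here), and the 3 nearest genes of each enzyme. A few further list genes (*PRDX4*, *TXNRD1*, *GSR*, *NFE2L2*, *NQO1*, *HMOX1*, *FTL*, *CCS*, *MAOA*, *MAOB*, *ALAS2*, *VWF*, *CDH5*) were added after their values were seen. The set and lists were chosen with earlier results of these data known. Alternatives were other scalings, filters and tools (DESeq2 1.42.0, limma 3.58.1 with voom), a surrogate variable (sva 3.50.0), the span slope, the replicate number and each pig left out. Omitting 3 pigs of low span slope or 4 rich in glia markers, the relations with red cell markers and the background of genes of short span were chosen after the data were seen. No exonic lengths were at hand, so levels were not compared between genes.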

Additional observations from a re-analysis of the deposited data

Results flagged for a closer look

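*PRDX5* in HFC replicate 5, at 7.004 on the log2(CPM + 1) scale, lay far from the other HFC pigs, the nearest of which was at 6.589. The gap was 0.626 of the range of the HFC group, above Dixon's 95% critical value for 8 pigs. It was the 1 value singled out among 30 groups of pigs checked (10 genes and 5 ratios in each feed conversion group), of which chance singles out about 5%. The same pig had the highest level of the HFC group in each of the 8 enzymes except *CAT*, and a span slope of -0.085. Without it the log2 fold change of *PRDX5* was -0.39 (adjusted p = 0.0931, edgeR).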

How the results depend on the processing

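Of 232 values of the 8 enzymes under 29 alternatives, 218 kept their direction and their side of an unadjusted p of 0.05, 9 passed it, 1 lost it and 4 turned. *SOD1* turned to 0.087 with a surrogate variable and 0.034 with the span slope, *GPX4* to 0.147 and 0.088, and *PRDX1*, outside the set, to 0.124 and 0.085. *PRDX5* no longer had an unadjusted p of at most 0.05 with the surrogate variable (-0.10 in edgeR), which left 1 of 8 enzymes at that p. Leaving out single pigs gave 2 to 4 enzymes (4 without HFC replicate 5), and the log2 ratio of *PRDX6* to *GPX4* differed by -0.046 to 0.077, below 0 without LFC replicate 4 or HFC replicate 1. DESeq2 called 29 genes, and each other alternative gave 0. Genes at an unadjusted p of at most 0.05 (1559) numbered 625 with the surrogate variable, 650 with the span slope, 2540 with voom, and 989 to 3514 without single pigs (989 without HFC replicate 4, 1013 without LFC replicate 4, 3514 without HFC replicate 5). Of the lists' genes (11), 5 were below that p with the span slope and 18 with voom, and 5 to 29 without single pigs (29 without HFC replicate 5, 5 without LFC replicate 4 or 6 or HFC replicate 4, 6 without HFC replicate 1, 7 without HFC replicate 2 or 8). The HFC pigs were higher in 61.4% of the 1559 genes, and in 46.0% of such genes with total library size as the scaling. The causes were not tested. The replicate numbers did not pair the pigs (r of deviations between same-numbered pigs -0.34 to 0.37, 3 of 8 above 0.1), and with the replicate block 1404 genes, 9 of the lists and 2 enzymes had an unadjusted p of at most 0.05. With 8 pigs a group, differences of the size seen here, of 1.06-fold to 1.26-fold, were not separable from the spread between pigs after adjustment over all genes.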

Other observations

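Markers of other cell types gave the following summed levels in the lowest, median and highest pig. Endothelial markers were at 134, 179 and 199 CPM in LFC and 106, 200 and 302 CPM in HFC pigs, with *VWF* (log2 fold change 0.78 ± 0.28, SE) and *CDH5* (0.42 ± 0.20, SE) below 0.05 in p before adjustment (edgeR). Fibroblast markers were at 243, 326 and 483 CPM in LFC and 297, 412 and 869 CPM in HFC pigs, with 4 of 6 genes higher in HFC and 2 in LFC, and *COL1A2* alone below 0.05 in p before adjustment (0.89, adjusted p = 0.372, edgeR). Macrophage markers were at 223, 281 and 356 CPM in LFC and 121, 224 and 415 CPM in HFC pigs, and those of folliculostellate cells at 407, 534 and 621 CPM and 402, 514 and 601 CPM. The part of these cells in the levels of the antioxidant enzymes was not tested.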
